A study of Mus musculus with 6 samples.

Results

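The 6 libraries described here came from fibroblasts of the mouse mammary fat pad, and they were sorted by how many counts fell on keratin genes. In BALB/c replicate 1 and C57BL/6 replicate 2, few counts came from keratins (the keratin-poor libraries, 2 of 6). In BALB/c replicates 2 and 3 and C57BL/6 replicates 1 and 3, many did (the keratin-rich libraries, 4 of 6). The keratin counts themselves made this division, so the difference between the 2 kinds of library is given below as a description, without a p-value for any gene. The labels do not name the 2 kinds.

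All cultures came from healthy females of 8 to 12 weeks, 3 biological replicates of the inbred strain BALB/c and 3 of C57BL/6, with no transgene or treatment named in the labels. The labels describe digestion of the fat pads with collagenases and DNase, lysis of red cells and plating on rat-tail collagen. The design text adds magnetic separation, without its target, and 4 days of culture before RNA was taken. The study set the strains side by side as a baseline, and each strain holds 1 keratin-poor and 2 keratin-rich libraries, so strain and keratin content are not confounded. The fibroblast genes Sparc and Vim were high in all 6 libraries (Sparc at 1516 to 6118 CPM, Vim at 814 to 4277 CPM). Not all fibroblast genes were, and Col3a1 was at 21.0 CPM in C57BL/6 replicate 1. CPM is a gene's count as a share of the library total after scaling.

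The mammary epithelium is a bilayer of luminal cells, which carry keratins such as Krt8 and Krt18, and basal or myoepithelial cells, which carry Krt14 and Krt5 and rest on laminin through the integrin that contains Itgb4. Keratins pair into the intermediate filaments of epithelial cells, claudins and Cdh1 join those cells to each other, and fibroblasts, by contrast, secrete fibrillar collagens and fill their cytoplasm with vimentin. A separate set of genes matters for what follows. When amino acids run short or the endoplasmic reticulum is stressed, cells phosphorylate the initiation factor eIF2, translate the transcription factor Atf4 more, and Atf4 with its partners raises genes that make, import and charge amino acids.

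Promoters of 3 epithelial genes and 3 amino acid response genes are shown first, because short sequences in them occurred at different frequencies in 2 sets of genes that differed in opposite directions below. Each runs from 250 bases before to 50 after the RefSeq transcription start on GRCm38.p6. In the first 3, capitals mark the E-box CAGGTG or its reverse complement CACCTG, a short sequence bound by the Snail and Zeb repressors among others. Krt8 lies on the minus strand at chr15:102004293-102004592, Cldn4 on the minus strand at chr5:134946885-134947184 and Cldn7 on the plus strand at chr11:69965171-69965470.
Krt8: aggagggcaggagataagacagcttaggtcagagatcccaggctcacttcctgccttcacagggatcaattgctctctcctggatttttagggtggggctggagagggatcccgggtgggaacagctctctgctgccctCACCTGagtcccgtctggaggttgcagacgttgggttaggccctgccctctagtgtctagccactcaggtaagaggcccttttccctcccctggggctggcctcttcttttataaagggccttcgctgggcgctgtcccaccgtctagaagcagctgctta
Cldn4: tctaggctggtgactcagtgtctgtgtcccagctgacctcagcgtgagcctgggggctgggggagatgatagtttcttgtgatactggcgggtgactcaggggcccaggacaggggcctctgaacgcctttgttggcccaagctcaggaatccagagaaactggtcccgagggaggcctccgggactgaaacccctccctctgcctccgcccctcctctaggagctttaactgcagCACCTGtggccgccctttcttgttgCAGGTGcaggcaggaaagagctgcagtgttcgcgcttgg
Cldn7: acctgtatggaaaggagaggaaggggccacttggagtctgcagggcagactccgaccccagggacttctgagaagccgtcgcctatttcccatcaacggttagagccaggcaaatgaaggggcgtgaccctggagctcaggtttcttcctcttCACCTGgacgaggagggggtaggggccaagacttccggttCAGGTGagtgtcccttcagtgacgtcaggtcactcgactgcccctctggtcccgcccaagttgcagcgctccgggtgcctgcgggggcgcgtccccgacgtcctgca

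In the next 3, capitals mark TGATGNAA or its reverse complement TTNCATCA, the core of the composite site to which Atf4 binds with a C/EBP protein. Asns lies on the minus strand at chr6:7693160-7693459, Chac1 on the plus strand at chr2:119350992-119351291 and Fgf21 on the minus strand at chr7:45615441-45615740.
Asns: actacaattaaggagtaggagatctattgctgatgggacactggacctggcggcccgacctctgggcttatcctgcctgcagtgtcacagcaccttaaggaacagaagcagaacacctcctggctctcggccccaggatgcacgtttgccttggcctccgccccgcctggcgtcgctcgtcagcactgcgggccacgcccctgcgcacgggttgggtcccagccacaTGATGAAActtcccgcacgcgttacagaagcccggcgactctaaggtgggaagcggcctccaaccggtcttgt
Chac1: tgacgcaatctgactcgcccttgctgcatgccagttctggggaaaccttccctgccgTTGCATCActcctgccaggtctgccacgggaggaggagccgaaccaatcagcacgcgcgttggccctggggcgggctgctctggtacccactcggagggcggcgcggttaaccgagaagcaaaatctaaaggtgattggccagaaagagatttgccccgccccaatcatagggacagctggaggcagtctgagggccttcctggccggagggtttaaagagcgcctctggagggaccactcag
Fgf21: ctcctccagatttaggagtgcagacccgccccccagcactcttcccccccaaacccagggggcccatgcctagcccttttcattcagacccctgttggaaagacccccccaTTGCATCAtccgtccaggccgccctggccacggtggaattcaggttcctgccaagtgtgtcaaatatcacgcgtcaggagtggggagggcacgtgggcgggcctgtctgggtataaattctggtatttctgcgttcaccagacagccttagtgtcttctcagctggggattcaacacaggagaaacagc

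Of 115 tested genes of the epithelial lists, 69 had a promoter in the RefSeq table, and 39 of these (56.5%) held the E-box on either strand. The share was 20.5% over the 7409 tested genes with a promoter and 16.2% in the fibroblast and matrix lists. The Grainyhead core ACCGGT, which is its own reverse complement, was in 4.35% of the epithelial promoters and in 4.12% of all. TGATGNAA was in 14 of 37 promoters of the amino acid response list (37.8%), against 2.69% of all tested genes, 4.35% of the epithelial lists and 2.70% of the fibroblast and matrix lists. A match is a string of letters in a window and not a shown binding site, and the response list was made of genes in part known for such sites.

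Library totals ran from 1035485 to 4665896 counts. C57BL/6 replicate 1 stood apart from the other 5 libraries. Its log2 CPM correlated with theirs across 9244 genes at a Pearson r of 0.715 to 0.856, against 0.878 to 0.944 among the other 5. A gene's deviation from the 6-library mean correlated with its GC content there (r = 0.637), while the keratin-poor libraries had r = -0.391 and -0.407 and the other keratin-rich ones -0.148 to -0.242. GC content therefore moved with the division, and its part in the differences was not tested. Values are from all 6 libraries unless the 5-library fit, without C57BL/6 replicate 1, is named.

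Keratins took 0.165% of all counts in BALB/c replicate 1 (95% exact binomial interval 0.158 to 0.171%) and 0.269% in C57BL/6 replicate 2 (0.260 to 0.278%). Among the keratin-rich libraries, BALB/c replicate 2 had 0.996%, BALB/c replicate 3 had 0.764%, C57BL/6 replicate 1 had 1.33% and C57BL/6 replicate 3 had 0.901%. The lowest keratin-rich share was thus 2.84 times the highest keratin-poor one, which is how the libraries were told apart, and BALB/c replicate 3 and C57BL/6 replicate 2 are the libraries just inside and just outside the boundary. The intervals cover counting error only. Neither keratin-poor library was free of epithelial transcripts.

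The other 140 genes of the epithelial lists, which are not keratins, held 0.513% and 0.628% of counts in the keratin-poor libraries and 1.27% to 1.98% in the keratin-rich ones. The ratio of the nearest libraries was 2.02 for these genes. In bulk RNA, fewer epithelial cells and less RNA of these genes per cell cannot be told apart.

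**Figure D1:**
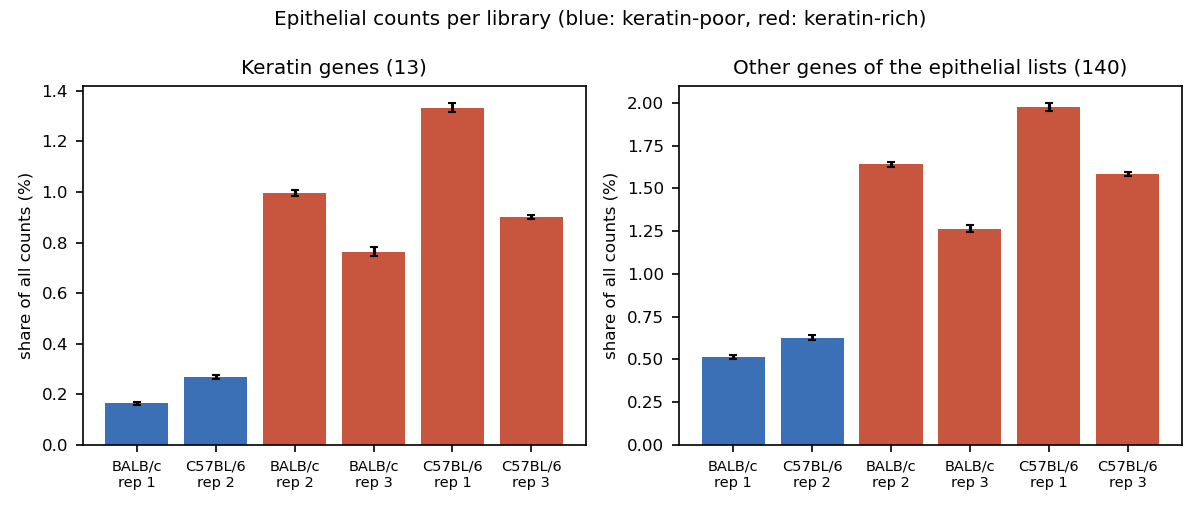
Share of all counts per library, in percent, for the 13 keratin genes (left) and for the 140 other genes of the epithelial lists (right); bars are single libraries, whiskers the exact 95% binomial intervals, blue the keratin-poor and red the keratin-rich libraries. The 2 blue bars are the lowest in both panels, at 0.165% and 0.269% on the left and 0.513% and 0.628% on the right.

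Krt8, Krt18, Itgb4 and Wnt7a are the 4 markers given for the epithelial content, the first pair of luminal cells and Itgb4 of basal cells. Krt8, the type II keratin of luminal cells (chromosome 15, 101996698 to 102004482), had 360 CPM in BALB/c replicate 1 and 736 in C57BL/6 replicate 2, against 2252, 1808, 3591 and 1880 in BALB/c replicates 2 and 3 and C57BL/6 replicates 1 and 3. That is a log2 difference of -2.18 ± 0.38 (standard error), or 4.55-fold lower. Krt18, its type I partner, had 351 and 722 CPM against 2396, 1972, 4179 and 2589, in the same order of libraries, a difference of -2.43 ± 0.33. Both are keratins, so their low values in these 2 libraries follow from the division.

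Itgb4, the integrin chain of hemidesmosomes, had 34.1 and 55.4 CPM in the keratin-poor libraries and 232, 287, 429 and 250 in the keratin-rich ones (-2.76 ± 0.35). Wnt7a, a secreted Wnt ligand, was low everywhere, with 5 and 3 counts in the keratin-poor libraries and 24 to 190 in the keratin-rich ones (-3.54 ± 0.49). Its value in the keratin-poor libraries rests on 8 counts in all.

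Proportions among the epithelial genes, in counts per Krt8 count, were close for some and differed for others. Krt14 per Krt8 was 0.263 and 0.230 in the keratin-poor libraries and 0.216 to 0.312 in the keratin-rich ones, which overlap. Krt18 per Krt8 was 0.976 and 0.981 against 1.06 to 1.38, and Krt19 per Krt8 was 0.279 and 0.296 against 0.189 to 0.261, without overlap in either case. Krt7 per Krt8 was 0.852 in BALB/c replicate 1, 0.645 in C57BL/6 replicate 2 and 0.774 to 0.930 in the keratin-rich libraries. Krt17 per Krt8 was 0.830 in BALB/c replicate 1 and 0.453 in C57BL/6 replicate 2, with 0.736 to 0.790 in the keratin-rich libraries, so the keratin-poor libraries differed from each other here. Krt14 and Krt17 share a near-identical stretch of 186 nt at their 3′ ends, which leaves their separate counts uncertain. Epcam per Krt8 was 0.0476 in C57BL/6 replicate 1 and 0.106 to 0.177 elsewhere.

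Of 28 keratin genes listed, 13 had counts and 11 were tested, and 9 of the 11 were lower in both keratin-poor libraries than in every keratin-rich one. Krt10, with 0.09 ± 0.56, and Krt20, with 0.64 ± 0.73, were the others, at 2.33 to 18.0 CPM. Over all tested genes, 15.3% were lower in this sense and 16.3% were higher, 1412 and 1510 of 9244. Since keratins made the division, nothing is read from the counts of any list against that background.

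Among luminal markers, the median log2 difference of 26 tested members was -2.14, all 26 were below 0, and 20 did not overlap. The median over all tested genes was 0.03, and 15.3% of them were lower without overlap. Wfdc2, a secreted protease inhibitor homolog, had 175 and 143 CPM against 1318, 868, 925 and 644 (-2.55 ± 0.33). Rab25, a small GTPase of epithelial membrane traffic, differed by -2.57 ± 0.42, and Muc1, the apical mucin, by -2.15 ± 0.51. Basal and myoepithelial markers had a median of -1.41 over 21 tested members. Of these, 19 were below 0 and 2 above, and 14 were lower without overlap. Sfn, the epithelial 14-3-3 protein, differed by -2.35 ± 0.35, Krt17 by -2.52 ± 0.38, and Itga3, an integrin chain that binds laminin, by -2.53 ± 0.39. Lama3 and Lamb3, laminin chains of epithelial basement membranes, differed by -1.41 ± 0.34 and -1.65 ± 0.28. Cnn1 and Myh11, which myoepithelial cells share with smooth muscle and contractile fibroblasts, had differences of -0.03 and -0.21.

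Junction genes had a median of -1.99 over 33 tested members, and 23 of them were lower without overlap, against 15.3% of all tested genes. Cldn4, whose promoter is printed above, had 219 and 252 CPM in the keratin-poor libraries and 1105, 880, 2285 and 970 in the keratin-rich ones (-2.43 ± 0.43). Cldn3 and Cldn7 differed by -2.54 ± 0.44 and -2.57 ± 0.41, and St14, a membrane serine protease that acts on epithelial barriers, by -2.99 ± 0.40. Cdh1, or E-cadherin, had 59.7 and 96.8 CPM against 358, 217, 164 and 305, a smaller difference of -1.75 ± 0.43. Tjp1, the tight junction scaffold that fibroblasts and endothelial cells also make, was the 1 tested member above 0, with 0.89 ± 0.89 (0.42 ± 0.39 in the 5-library fit) at 0 to 15.6 CPM.

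Regulators of the epithelial state were fewer and lower in level. All 12 tested transcription and splicing factors were below 0, with a median of -1.63. Of these, 8 were lower without overlap, against 15.3% of all tested genes. Gata3, a factor of luminal differentiation, had 26.2 and 22.6 CPM against 87.8, 91.0, 109 and 94.6 (-1.96 ± 0.29). Elf3, an epithelial ETS factor, differed by -2.84 ± 0.74, and Sox10, found in mammary epithelium and in Schwann cells, by -2.07 ± 0.37. Grhl2, a Grainyhead factor that maintains junction genes, was at 2.63 to 13.2 CPM, with a difference of -1.46 ± 0.65.

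Most secreted and surface signals were lower, and some were near 0. The list of epithelial ligands, receptors and protease inhibitors had a median of -1.62 over 23 tested members. Of these, 19 were below 0 and 4 above, and 15 were lower without overlap, beside 15.3% of all tested genes. Lcn2, a lipocalin that sequesters iron, had 129 and 292 CPM against 1090, 773, 4356 and 1967 (-3.14 ± 0.45). Slpi, a secreted protease inhibitor, differed by -3.22 ± 0.59, and the Wnt ligands Wnt5b and Wnt7b by -2.53 ± 0.39 and -2.45 ± 0.40. Hbegf, a ligand of the EGF receptor, and Jag1, a Notch ligand, were at -0.02 ± 0.29 and 0.02 ± 0.64, Jag1 at -0.40 ± 0.38 in the 5-library fit. Milk and secretory genes had a median of -0.38 over 7 tested members, with 2 lower without overlap, beside 15.3% of all tested genes. The 2 were Trf at -1.21 ± 0.31 and Btn1a1, on 1 to 40 counts, at -2.52 ± 0.77. Mfge8 and Plin2, proteins of the milk fat globule, were at -0.38 ± 0.36 and -0.24 ± 0.25.

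Genes of the fibroblast itself were higher in the keratin-poor libraries. The median of 29 tested fibroblast markers was 1.12, with 27 above 0 and 21 higher without overlap, against 16.3% of all tested genes. Col3a1, the chain of type III collagen, had 775 CPM in BALB/c replicate 1 and 940 in C57BL/6 replicate 2, and 152, 338, 21.0 and 245 in BALB/c replicates 2 and 3 and C57BL/6 replicates 1 and 3 (2.27 ± 0.80 with all 6 libraries, 1.77 ± 0.31 in the 5-library fit). Postn, a matricellular protein, had 868 and 1408 CPM against 241, 391, 17.1 and 468 (2.03 ± 0.94). For both genes the lowest value came from C57BL/6 replicate 1, and the keratin-poor libraries were above the rest without it too.

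The matrix list had a median of 0.79 over 35 tested members, 21 of them higher without overlap, against 16.3% of all tested genes. Col1a1 had 661 and 513 CPM against 191, 316, 221 and 214 (1.31 ± 0.27), and Fbn1, the microfibril protein fibrillin, had 446 and 429 against 125, 232, 237 and 190 (1.17 ± 0.31). The type VI collagen chains Col6a1 and Col6a2 differed by 2.13 ± 0.56 and 2.44 ± 0.45, and Lox, which crosslinks collagen, by 1.60 ± 0.45. Of the 35, 4 were below 0. Among them were Lama5, a laminin chain of epithelial basement membranes, at -2.11 ± 0.37, and Col18a1, a basement membrane collagen, at -1.09 ± 0.29.

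Not every fibroblast gene followed. Pdgfrb had 272 and 276 CPM against 147, 270, 349 and 272 (0.12 ± 0.33), and Pdgfra 0.80 ± 0.60. S100a4, at times called a fibroblast-specific protein, was lower (-1.52 ± 0.35), as was Ly6a (-1.34 ± 0.32), whose level differed far more between the strains (9.84 to 18.4 CPM in BALB/c and 106 to 366 in C57BL/6). Vim, at 814 to 4277 CPM, differed by 0.80 ± 0.47 (0.45 ± 0.19 in the 5-library fit), and Sparc and Bgn, matrix proteins, by 1.16 ± 0.35 and 0.63, while Fn1 was at 0.31 ± 0.52, and at -0.10 ± 0.20 in the 5-library fit. Of the mesenchymal transcription factors, Snai2 (2.31 ± 0.66), Zeb1 (1.47 ± 0.73), Prrx1 (1.40 ± 0.50) and Twist1 (1.12 ± 0.38) were higher without overlap, and Snai1 was lower without overlap (-0.71 ± 0.25). Fibroblast markers summed to 21060 and 23091 CPM in the keratin-poor libraries and to 6403 to 15893 in the keratin-rich ones.

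**Figure D2:**
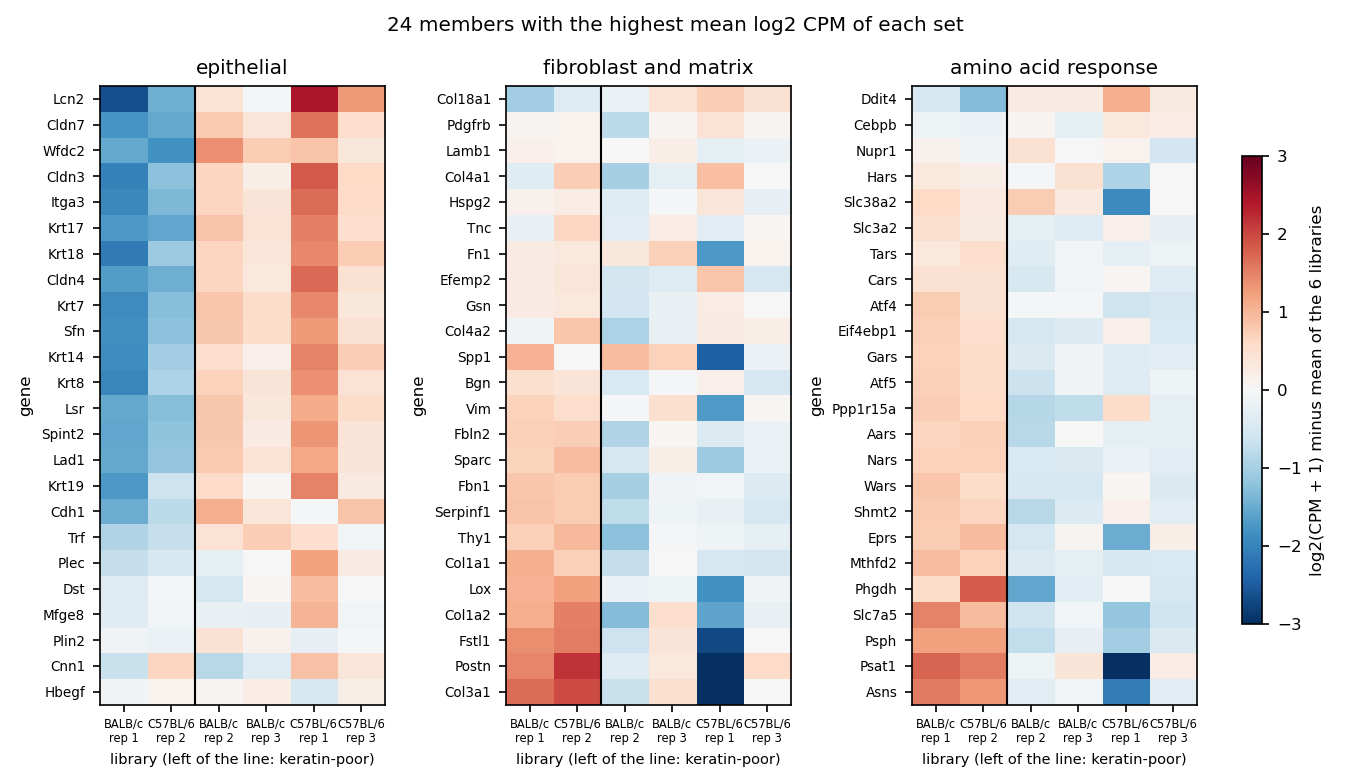
Deviation of log2(CPM + 1) from the mean of the 6 libraries (colour, shown from -3 to 3, with values beyond drawn at the ends) for the 24 tested members with the highest mean log2 CPM of the epithelial lists, the fibroblast and matrix lists, and the amino acid response list; rows are genes ordered by log2 difference, columns are libraries, with the 2 keratin-poor ones left of the line. Most epithelial rows are blue on the left and red on the right, the lower rows of the other 2 panels show the opposite, and C57BL/6 replicate 1 reaches the lower end of the scale for Col3a1, Postn and Psat1.

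Genes of the amino acid response were also higher in the keratin-poor libraries. The 56 genes of this list were chosen after values had been seen. Of 48 tested members, 45 were above 0, with a median of 1.06, and 41 were higher without overlap, against 16.3% of all tested genes. In the 5-library fit, 39 of 47 tested members were past the threshold of 0.05 on edgeR's adjusted p and higher, and 1 was lower, where 2.75% of all tested genes were higher and 4.75% lower in that fit. Because the list was chosen on these libraries, these counts are a description of it.

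Atf4 had 1073 CPM in BALB/c replicate 1 and 871 in C57BL/6 replicate 2, and 622, 606, 418 and 450 in BALB/c replicates 2 and 3 and C57BL/6 replicates 1 and 3 (0.91 ± 0.22). Its partners and outputs ranged widely. Ddit3, the stress factor CHOP, had 233 and 184 CPM against 84.3, 68.7, 123 and 73.6 (1.27 ± 0.31), and Trib3, a pseudokinase that holds the response in check, had 285 and 221 against 65.1, 63.9, 83.8 and 64.7 (1.87 ± 0.25). Chac1, which degrades glutathione, had 191 and 121 CPM against 44.5, 47.4, 38 and 29.7 (1.95 ± 0.25). For both outputs the 4 keratin-rich libraries, C57BL/6 replicate 1 included, lay close together. Fgf21, a secreted hormone, had 80.7 and 107 CPM against 2.49, 13.6, 11.6 and 7.68 (3.52 ± 0.55). Over this role, 10 of 14 tested regulators and outputs were higher without overlap, against 16.3% of all tested genes, with a median of 0.93. Ddit4, an inhibitor of mTORC1 that other stresses also induce, was lower without overlap (-1.34 ± 0.41), Eif4ebp1, which restrains translation, was at 0.92 ± 0.28, and Cebpb and Nupr1 were at -0.25 ± 0.25 and 0.00 ± 0.30.

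All 13 tested enzymes of amino acid and one-carbon metabolism were higher without overlap, with a median of 1.83. The share over all tested genes was 16.3%, and these genes belong to the list chosen after values were seen. Asns, which makes asparagine, had 491 and 415 CPM against 133, 157, 38 and 132 (2.02 ± 0.44). Cth, which makes cysteine from cystathionine, had 129 and 85.1 CPM against 8.54, 12.6, 1.55 and 6.87, the largest difference of the list at 3.88 ± 0.46. Its 1.55 CPM in C57BL/6 replicate 1 was 2 counts, below the floor of 3, and the 5-library fit gave 3.64 ± 0.24. The serine pathway enzymes Phgdh, Psat1 and Psph differed by 1.74 ± 0.39, 1.91 ± 0.79 and 1.83 ± 0.28, Psat1 by 1.46 ± 0.19 in the 5-library fit. Phgdh shares near-identical stretches of up to 367 nt with the 3′ ends of 7 other annotated genes. Psph overlaps an exon of Cct6a, so the counts of both are less certain. The mitochondrial folate enzymes Shmt2, Mthfd2 and Aldh1l2 differed by 1.06 ± 0.29, 1.22 ± 0.22 and 2.83 ± 0.38, and Pycr1, of proline synthesis, by 2.25 ± 0.39. Pycr1 shares stretches of up to 80 nt with the 3′ ends of 26 other annotated genes.

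Transporters had a median of 1.23 over 9 tested members, 7 of them higher without overlap, against 16.3% of all tested genes. Slc7a5, the light chain of the large neutral amino acid carrier, had 367 and 253 CPM against 85.0, 123, 57.4 and 84.9 (1.82 ± 0.27), while Slc3a2, its heavy chain, differed by 0.56 ± 0.26. Slc3a2 shares stretches of up to 106 nt with the 3′ ends of 89 other annotated genes. Slc7a3, a cationic amino acid carrier, differed by 3.34 ± 0.49, and Slc38a2 by 0.51 ± 0.51, with overlap. The tRNA synthetases and the tRNA exporter Xpot had a median of 0.97. Of 12 tested, 11 were higher without overlap, against the same 16.3% of all tested genes. Nars had 743 and 750 CPM against 337, 343, 408 and 371 (1.04 ± 0.22). Aars, Gars and Wars differed by 1.01 ± 0.28, 0.93 ± 0.23 and 1.05 ± 0.27. Aars shares a near-identical stretch of 500 nt with the 3′ end of Exosc6, whose exons it overlaps, so its count is less certain. Synthetases ranged from 0.35 for Hars to 1.17 for Eprs. The summed level of the list was 14372 and 13009 CPM in the keratin-poor libraries and 6906 to 7626 in the keratin-rich ones.

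**Figure D3:**
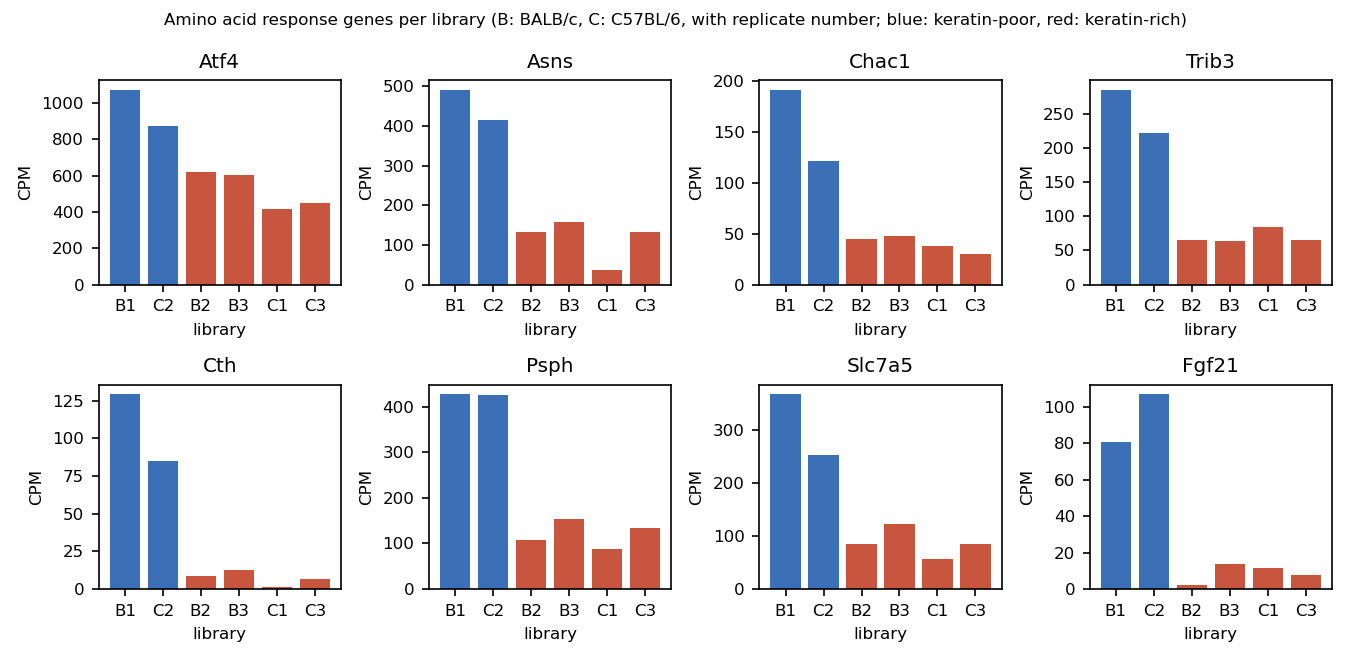
CPM in each library (bars, linear axes from 0, single libraries with no error) for 8 genes of the amino acid response; B and C stand for BALB/c and C57BL/6 with the replicate number, blue for keratin-poor and red for keratin-rich libraries. In all 8 panels both blue bars are higher than every red one, from 871 against 622 CPM at the boundary for Atf4 to 85.1 against 12.6 for Cth.

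Of the lists of other cell types, the macrophage, endothelial, adipocyte and contractile ones had medians between -0.41 and -0.02, and the lymphocyte and Schwann cell lists, with few tested members, had 1.83 and -1.50. Macrophage and dendritic cell genes had a median of -0.19 over 22 tested members, 4 of them lower without overlap, beside 15.3% of all tested genes. They summed to 1213 and 1234 CPM in the keratin-poor and 878 to 2296 in the keratin-rich libraries. The strains differed in sign here, with within-strain medians of 0.25 in BALB/c and -0.78 in C57BL/6, and the median was -0.69 without BALB/c replicate 1 and 0.23 without C57BL/6 replicate 2. C1qa, a complement chain of macrophages, was at -0.00 ± 0.50 (0.38 ± 0.21 in the 5-library fit), and Lyz2 at -0.13 ± 0.33. Endothelial genes had a median of -0.26 over 11 members, with sums of 315 and 380 against 253 to 644 CPM, and Eng and Ecscr differed by -0.26 ± 0.38 (0.01 ± 0.20 in the 5-library fit) and 0.67 ± 0.38. Adipocyte genes had a median of -0.41 over 9 members (Pnpla2 -1.19 ± 0.37, Scd1 0.88 ± 0.41), with sums of 274 and 259 against 283 to 425 CPM. Of 20 lymphocyte genes, 1 was tested, Lck, at 10.5 and 9.37 CPM against 0.968 to 3.56 (1.83 ± 0.61). The 0.968 CPM, in BALB/c replicate 3, lay below the floor of 3 counts, 2.90 CPM there. Of the 20, 2 were among the 12023 genes with counts, and the others could not be tested. Of 4 tested Schwann cell genes, Sox10 and Erbb3 are also made by mammary epithelium, and Mbp, at 6.56 to 34.2 CPM, differed by -1.37 ± 0.45. Contractile and pericyte genes had a median of -0.02 over 24 members, with Tagln at 0.19 ± 0.31 and Tpm1 at -0.25 ± 0.28. The part of these cells in the differences was not tested.

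Of 19 tested inflammatory genes, 5 were lower in the keratin-poor libraries without overlap, beside 15.3% of all tested genes. Another 3 were higher without overlap, beside 16.3% of all tested genes, so no divided response is read from this list. Nos2, Csf3, Tnf and Lif were lower without overlap, at -3.66 ± 0.75, -3.46 ± 0.55, -2.60 ± 0.64 and -0.95 ± 0.27. Csf3, the granulocyte growth factor G-CSF, had 2.62 and 7.03 CPM against 50.1, 28.1, 83.8 and 43.9. Il6, Ccl8 and Ptgs2 were higher without overlap, Il6 at 36.7 and 67.2 CPM against 3.91, 26.1, 1.55 and 21.0 (1.96 ± 0.89). The 1.55 CPM of Il6 in C57BL/6 replicate 1 lay below the floor of 3 counts, 2.33 CPM there. Csf1, the most abundant cytokine of the list, had 1399 and 2288 CPM against 1015 to 1886 and differed by 0.33 ± 0.24. Over all 19 tested members the median was -0.27, and it was -0.58 in the 5-library fit. Within the strains it was -0.57 in BALB/c and 0.38 in C57BL/6.

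The remaining lists had medians between -0.31 and 0.43. Proliferation had -0.12 over 29 members (Ube2c -0.88 ± 0.25, Tuba1b -0.05), cytosolic ribosomal proteins 0.17 over 56 (Rps2 0.34, Rplp1 -0.02), interferon response 0.43 over 26 (Ifitm3 0.07, Bst2 -0.03), TGF-beta ligands and targets 0.04 over 23 (Ccn2 1.03 ± 0.72, or 0.51 ± 0.18 in the 5-library fit), glycolysis -0.10 over 24 (Pkm -0.55, Aldoa -0.25) and cholesterol synthesis -0.31 over 20 (Fdps -0.19). Immediate early and dissociation genes had -0.18 over 24. Among them Ier3 was lower without overlap (-1.41 ± 0.33) and Nr4a1 and Klf4 were higher (1.26 ± 0.28 and 1.22 ± 0.46), while Hspa8 was at -0.65 ± 0.29. Gapdh had 2443 and 59.3 CPM in the keratin-poor libraries and 23.8 to 1936 in the keratin-rich ones. Near-identical stretches in the 3′ ends of 87 other annotated genes leave its count uncertain.

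**Figure D4:**
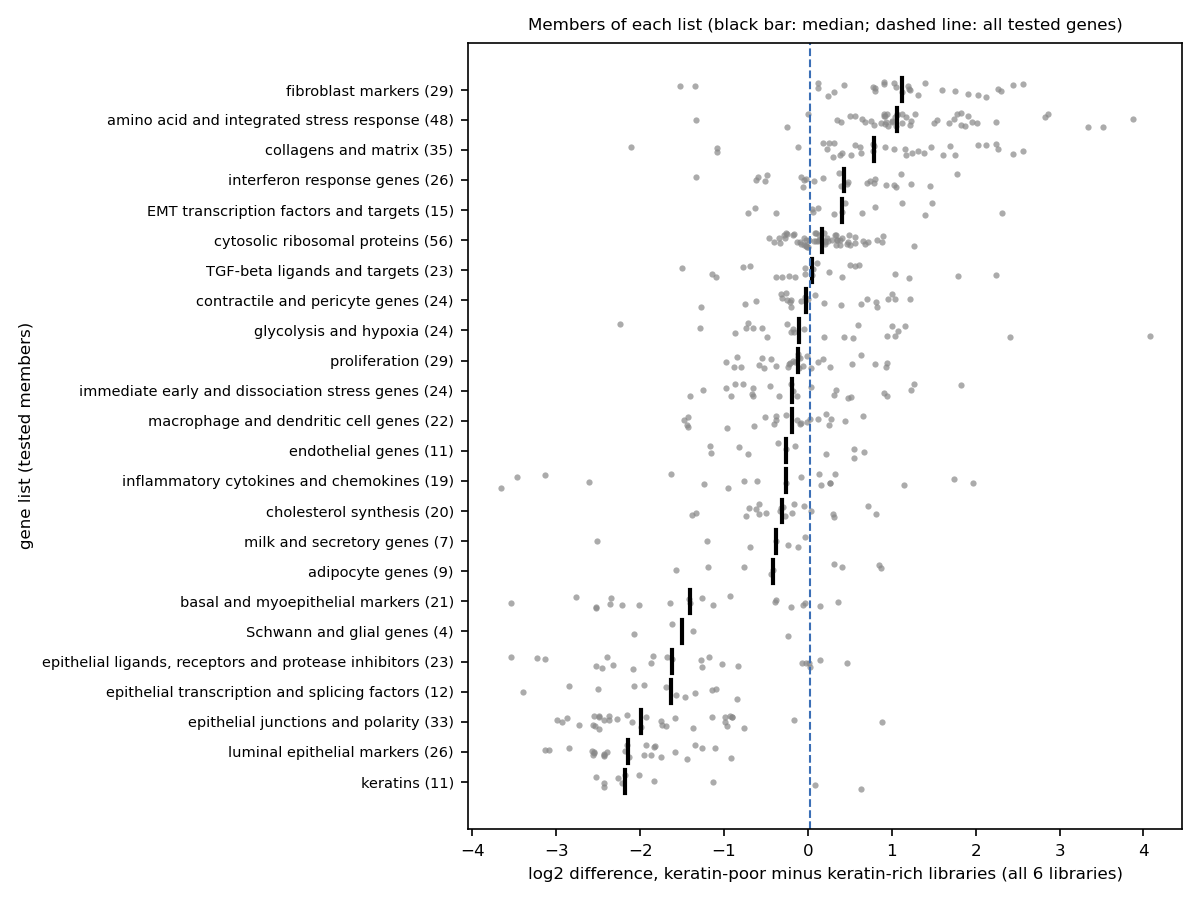
Log2 difference of each tested list member, keratin-poor minus keratin-rich with strain as a term and all 6 libraries (grey points, horizontal axis), by gene list (rows, tested members in brackets, lists with at least 3 tested members); black bars are list medians and the dashed line is the median of all tested genes, 0.03. Keratins, luminal and junction genes lie lowest, with medians of -2.18, -2.14 and -1.99, and fibroblast markers and amino acid response genes highest of the lists drawn, with 1.12 and 1.06.

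Outside all epithelial lists, the rule for named genes took 5 genes in each direction, all short of the threshold with all 6 libraries and without overlap between the 2 kinds of library. Higher in the keratin-poor libraries were Acot2, Chac1, Trib3, Slc7a5 and Psph. Acot2, a mitochondrial acyl-CoA thioesterase, had 138 and 113 CPM against 23.1, 31.9, 25.6 and 26.7 (2.22 ± 0.27, 4.67-fold). The other 4 belong to the amino acid response. Lower were Fam167a, Ano1, Shroom3, Gprc5a and Chil1. Ano1, a calcium-activated chloride channel, had 7.22 and 43.7 CPM against 53.7, 54.2, 195 and 173 (-2.40 ± 0.33). Shroom3, which drives apical constriction of epithelial sheets, had 19.7 and 35.9 against 122, 119, 136 and 130 (-2.23 ± 0.31), Gprc5a differed by -1.92 ± 0.28, Fam167a by -2.76 ± 0.34, and Chil1, a chitinase-like secreted protein, by -2.91 ± 0.43.

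With all 6 libraries, 0 of 9244 genes passed edgeR's threshold in either direction (0% higher and 0% lower). The smallest adjusted p was 0.0867, and 1060 genes had an unadjusted p under 0.05. DESeq2 passed 285 genes (59 higher, 226 lower) and limma-voom 0. In the 5-library fit, 680 of 9065 genes passed (7.5%), 249 higher and 431 lower, and the biological coefficient of variation was 18.6% against 36.0% with all 6. Of the 680, all had the same sign with all 6 libraries and 621 did not overlap over the 6. The division itself came from these libraries, so nothing is read from these counts.

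Of the 680, 69 belonged to the 110 tested genes of the epithelial lists, all lower, and the rest, 249 higher and 362 lower, did not. The 10 genes per direction named from this fit were chosen after values were seen. Fibin, a secreted protein, had 302 and 226 CPM against 28.5, 44.5, 6.99 and 32.5 (2.95 ± 0.21 in the 5-library fit). Cyb5r1, a reductase, differed by 1.87 ± 0.15, Nnmt, which methylates nicotinamide, by 1.82 ± 0.35, Thbs2, a matricellular thrombospondin, by 1.77 ± 0.35, and Pla1a, a phospholipase, by 1.74 ± 0.36, beside Acot2, Chac1, Trib3, Phgdh and Col3a1. On the lower side, Lce1g, a late cornified envelope gene, differed by -3.75 ± 0.52, and 4 relatives share near-identical stretches of its 3′ end. Myh14, a nonmuscle myosin, differed by -2.75 ± 0.35, Mapk13, a p38 kinase, by -2.39 ± 0.26, and the zinc importer Slc39a4 by -2.36 ± 0.28. The membrane transporter Slc4a11 differed by -2.36 ± 0.31 and the semaphorin Sema3f by -2.32 ± 0.31. Scx, best known as a tendon transcription factor, differed by -2.45 ± 0.39, at 10.5 and 25 CPM against 71.6 to 149. Chil1, Fam167a and Ano1 completed the 10.

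The 2 strains gave these differences separately, since they share no library. Within BALB/c, replicate 1 minus the mean of replicates 2 and 3, and within C57BL/6, replicate 2 minus the mean of replicates 1 and 3, correlated across 9244 genes at a Pearson r of 0.584, and at 0.572 over 9129 genes without the epithelial lists. Genes are not independent replicates and all libraries share one scaling, so r is a description. The sign was the same for 68.0% of genes. Luminal markers had medians of -2.16 in BALB/c and -1.94 in C57BL/6, fibroblast markers 1.15 and 1.33, and the amino acid response 1.18 and 1.02. The 2 keratin-poor libraries, of different strains, correlated at 0.944, as did BALB/c replicate 3 and C57BL/6 replicate 3.

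**Figure D5:**
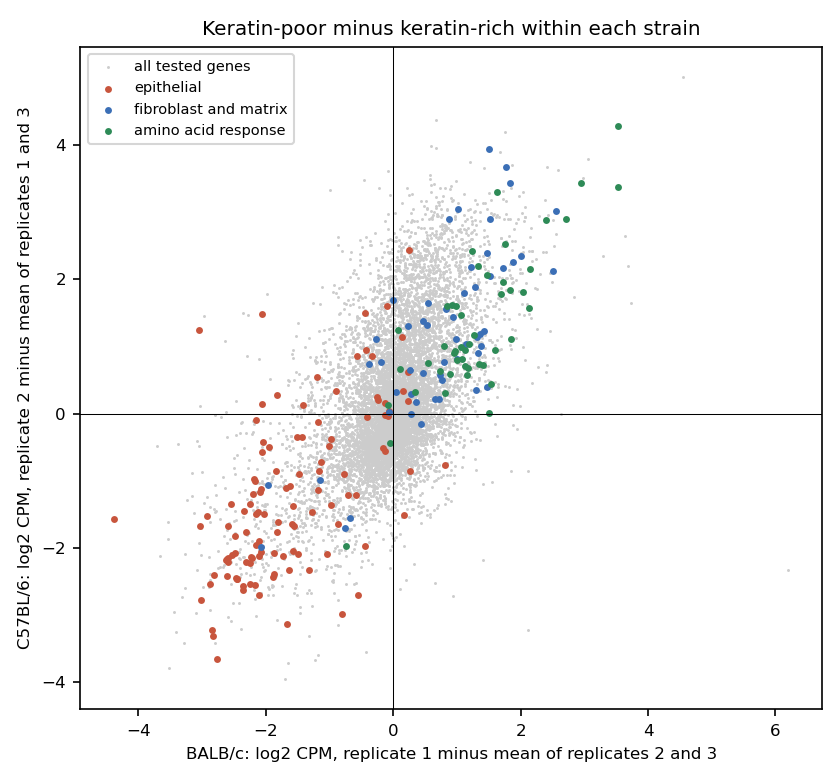
Log2 CPM of the keratin-poor library minus the mean of the 2 keratin-rich libraries of its strain, for BALB/c (horizontal) and C57BL/6 (vertical); grey points are all 9244 tested genes and colours mark the epithelial, fibroblast and matrix, and amino acid response lists. Most epithelial genes lie at the lower left and most genes of the other 2 sets at the upper right, with r = 0.584 over all points.

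Whether the difference between the 2 kinds of library depended on strain was tested as an interaction. No gene passed edgeR's adjusted threshold (0 of 9244, 0%), 35 genes had an unadjusted p under 0.05 (0.379%), and the smallest adjusted p was 1.00, in a design with 1 keratin-poor library per strain. limma-voom also gave 0, with 29 genes at an unadjusted p under 0.05, and the 5-library fit gave 1.

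The strain comparison, whose groups come from the labels, was fitted with and without the keratin class. Strain alone gave 18 genes past edgeR's adjusted p of 0.05 (0.195%), and with the class as a term 24 genes passed (0.26%), 7 higher and 17 lower in BALB/c, the 18 among them. The biological coefficient of variation was 41.8% with strain alone and 36.0% with the class, and the median standard error of a gene 0.429 and 0.390. The 6 genes added were Acta1, Morf4l1, Pf4, Pianp, Snhg6 and Sod3. Acta1, skeletal muscle actin, had 188 ± 73.5 CPM in BALB/c and 1020 ± 444 in C57BL/6 (SD, n = 3 each), a log2 difference of -2.47 ± 0.29 with the class (edgeR adjusted p = 0.0314) and -2.44 ± 0.45 without it (edgeR adjusted p = 0.187). Sod3, extracellular superoxide dismutase, had 3.45 ± 0.99 and 35.2 ± 16.5 CPM (n = 3 each), with an edgeR adjusted p of 0.04998 with the class and 0.104 without. Ly6a, a surface antigen, had a strain difference of -4.18 ± 0.55 alone and -4.06 ± 0.31 with the class (edgeR adjusted p = 0.0449 and 0.00643). With strain alone, the p-values rest on the spread between these 3 labelled biological replicates per strain. With the class as a term, they rest on the spread left after the class difference is taken out. That class was read from these same libraries. With the class as a term, 0 genes passed without BALB/c replicate 1, 2 or 3 or without C57BL/6 replicate 2, 5 without C57BL/6 replicate 3, and 99 without C57BL/6 replicate 1.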

How the data were processed

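RNA of 6 cultures of mouse mammary fibroblasts was measured by sequencing of 3′ ends. The values are raw counts per gene symbol, deposited by the authors as 1 table that, per the file headers, has a column for each library. STAR 2.4.2a, HTSeq, bcl2fastq and the build mm10 were used, per the submitters' processing notes. Settings, use of strand, molecular identifiers and the treatment of reads with several matches are not stated. The 12023 genes listed each have at least 6 counts in at least 1 library.

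Counts were fitted with edgeR 4.0.16 (R 4.3.3) by the quasi-likelihood method with robust dispersion, TMM scaling (factors 0.851 to 1.07), and strain and keratin class as terms. filterByExpr by class left 9244 genes. Tests were two-sided with Benjamini-Hochberg adjustment over all tested genes and a threshold of 0.05. Differences are log2, keratin-poor minus keratin-rich, ± standard error. Log2 CPM used a prior count of 2, and the values printed per library are plain CPM on the scaled totals. Without overlap means that both keratin-poor libraries lay on 1 side of all 4 keratin-rich ones. The alternatives included DESeq2 1.42.0, limma-voom 3.58.1, a GC and length offset, other scalings and filters, and leaving out each library.

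The 2 kinds of library and the gene lists were chosen with earlier results of these data known. The amino acid response list, its motif, and the genes named from the fit without C57BL/6 replicate 1 were added after values were seen. Named genes were the 4 markers, the 5 genes per direction outside the epithelial lists with the smallest p among those without overlap whose log2 CPM averaged 5 or more, since none passed the threshold, and the most abundant 2 of each list. Some genes the rule takes are not reported here. Further list members are named as examples, chosen after their values were seen. Positions are from GENCODE vM21 (GRCm38, the same assembly as mm10), which located all 608 listed or named genes. Of 69 named genes, 12 had a near-identical 3′ end elsewhere (BLAST 2.17.0, 95% identity over at least 60 nt of the last 500) and 22 had exons overlapping another gene. The fits were tested on simulated data. Counting intervals and floors cover counting error only.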

Additional observations from a re-analysis of the deposited data

Results flagged for a closer look

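For 2 of the named genes, the difference between the keratin-poor and keratin-rich libraries went in opposite directions in the strains, with every library of each strain on the side of its own direction. Fn1, or fibronectin, was lower in the keratin-poor library of BALB/c by a log2 difference of -0.27 and higher in that of C57BL/6 by 1.12. It had 2824 CPM in BALB/c replicate 1 against 2997 and 3881, and 2937 in C57BL/6 replicate 2 against 716 and 2563. Lyz2, the macrophage lysozyme, was higher by 0.36 in BALB/c and lower by -0.63 in C57BL/6, with 546 CPM against 338 and 533, and 445 against 672 and 711. The interaction term of edgeR gave an adjusted p of 1.00 for both, and with 1 keratin-poor library per strain it bears little on either gene. Fn1 had its lowest value in C57BL/6 replicate 1, and Lyz2 shares 497 nt of its 3′ end with Lyz1.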

How the results depend on the processing

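The keratin-poor minus keratin-rich comparison passed 0 genes with all 6 libraries. It passed 285 with DESeq2, 81 with a GC and length offset, 184 with log2 keratin CPM as a continuous term, 468 with a replicate block, and 0 to 680 with 1 library left out, the 680 without C57BL/6 replicate 1. Strain with the class as a term passed 24 genes, and 10 with library totals alone, 10 with a mean of at least 50 counts, 88 with DESeq2, 13 with limma-voom, 39 when offset for GC and length, 37 with a replicate block and 0 to 99 with 1 library left out. The interaction passed 1 gene without C57BL/6 replicate 1. The ratio of the nearest shares was 2.02 without keratins, against 2.84. The cause of these changes was not tested. With the GC and length offset, medians were -1.92 for luminal, -1.32 for basal, -1.76 for keratin, -1.67 for junction, 1.27 for fibroblast, 0.99 for matrix and 1.29 for amino acid response genes. These 7 lists kept their sign in all 18 alternatives run. So did other lists with medians nearer 0, such as proliferation (-0.12) and cholesterol synthesis (-0.31), so a kept sign is not particular to the 7. Over all 25 list medians, 420 of 448 values kept their sign, and over 69 named genes 1189 of 1239. Same-numbered libraries of the 2 strains deviated from their strain means with r of -0.420, -0.405 and -0.0701. Replicates 1 and 2 each set a keratin-poor library beside a keratin-rich one. These values therefore cannot show whether replicate numbers pair the libraries, and no blocked call is read as an effect of pairing. The floor of 3 counts lies at 0.606 to 2.90 CPM over the libraries, and lower values rest on fewer counts than that and are imprecise.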
